A study of Homo sapiens with 4 samples.

Results

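The circRNAs described here span 2 to 10 kb of the genome from the first to the last base of the loop and were assigned to a single host gene. They were chosen from the deposited circRNA table by detection, host and position: a value above 0 in at least 1 of 4 lines, exactly 1 host identifier, and at least 2000 but under 10000 bases between the deposited ends. The rule found 2496 circRNAs among 7604 with 1 host, 8000 with any value and 12473 in the table.

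The study addressed the knockdown of circRNAs with antisense oligonucleotides that carry locked nucleic acid bases. Its sequenced samples were established human lines of liver cancer, namely Hep3B, HepG2, Huh-7D12 and also SK-Hep-1, with 1 library of total RNA each, and 4 values in a row always follow that order of the lines. Ribosomal RNA was depleted and poly(A) selection was omitted, so that linear and circular RNA were both read. With 1 library per line there were no replicates, so no test, p-value or standard deviation is given. Every interval below is at 95%. Those of read counts, shares of reads, levels and folds cover counting error only. Those of shares of loops and of medians over loops take each loop as independent, although loops of 1 host are not. None of them measures a spread between samples.

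A circRNA forms when the splicing machinery joins the end of an exon back to the start of the same exon or of an exon upstream of it. The product is a closed loop without a cap or a poly(A) tail, which resists exonucleases and can outlast the linear message of its host gene. The genomic span of a loop includes introns that are usually spliced out, whereas the back-splice junction is the stretch that the linear message lacks and that a junction-directed antisense oligonucleotide pairs with.

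The junctions below belong to loops on which the results turn: the first 4 are among the 10 with the highest levels, and the others were read in 1 line each. Each line holds 15 bases from the end of the loop in lower case, followed in capitals by the first 15 bases of the loop, so that the change of case marks the back-splice. They are read 5′ to 3′ on the strand of the host gene from GENCODE 29 transcripts on GRCh38.
NFATC3 exons 2 and 3, chr16:68121987-68126610, plus strand: catcctgttgtgaagATCTTGAGCCAGATG
FGD6 exon 2, chr12:95208843-95211267, minus strand: acatcagcattccagAGATAAAGAAGCCAC
FNDC3B exons 5 and 6, chr3:172247533-172251541, plus strand: attcagacttgcaagGTGATTGAAGATAGT
PHC3 exons 5 and 6, chr3:170145423-170149244, minus strand: tctgcagctactcagATCAACCTCTCCACT
NECTIN3 exons 6 and 7, chr3:111144899-111147484, plus strand: aaagacctatttcagATGTTCCATTTAAGC
DIP2C exons 7 to 9, chr10:408926-415888, minus strand: cggcctggagataggGAGTACCAGTAAGTA
MYOF exons 17 to 19, chr10:93381219-93389154, minus strand: gtgctgtatttgatgTAAACACAGGAGAAA

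The 20 bases centred on the junction, 10 from each side, were looked for in all 206694 GENCODE 29 transcripts. Of the 2159 loops whose ends both matched exons of 1 transcript, 1 had its 20 bases in linear transcripts, a loop of exons 45 to 54 of ANKRD36 with 2 reads, and those transcripts were of the same gene. No pair of these loops shared the same 20 bases.

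To show what a whole loop holds, the spliced sequences of 2 short coding loops follow, with the first and last 15 bases in capitals; these are the bases that the back-splice joins. The PHC3 loop was read in all 4 lines and the NECTIN3 loop only in Hep3B.
PHC3 exons 5 and 6: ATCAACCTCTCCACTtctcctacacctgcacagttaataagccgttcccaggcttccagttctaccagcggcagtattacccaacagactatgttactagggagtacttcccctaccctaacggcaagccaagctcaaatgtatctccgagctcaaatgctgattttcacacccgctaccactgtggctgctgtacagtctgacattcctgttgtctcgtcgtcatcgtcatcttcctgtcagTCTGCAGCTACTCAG
NECTIN3 exons 6 and 7: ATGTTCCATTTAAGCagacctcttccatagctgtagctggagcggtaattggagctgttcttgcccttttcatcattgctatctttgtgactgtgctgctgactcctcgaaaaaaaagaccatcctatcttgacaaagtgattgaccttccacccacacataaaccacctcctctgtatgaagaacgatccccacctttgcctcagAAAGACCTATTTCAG

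The PHC3 loop is 258 nt long, which is a multiple of 3, and had a GC content of 50%. The NECTIN3 loop is 221 nt long with a GC content of 44.8%.

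The libraries differed in depth. Gene reads outside mitochondrial genes ranged from 12075008 in HepG2 to 17283875 in Hep3B, and the back-splice reads of all circRNAs from 6235 in HepG2 to 13515 in Huh-7D12. The labels were checked against marker genes: ALB, the serum albumin gene, had 298342, 89823, 70923 and 0 reads. VIM, the vimentin gene of mesenchymal cells, had 7860, 2, 18463 and 114590 reads, so that the hepatocyte marker was at 0 in SK-Hep-1. Of the other hepatocyte markers, APOB had 2, HNF4A 0 and SERPINA1 752 reads in SK-Hep-1, beside at least 2952 each in the other lines. The mesenchymal markers CD44 and COL4A2 stood at 27025 and 2909 reads there, beside at most 28 and 7 elsewhere, and AFP of fetal liver had 13 reads there and 13420 to 565148 elsewhere.

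The circRNAs of 2 to 10 kb held 13394 back-splice reads in all, 35.0% of the reads of circRNAs with 1 host gene. Hep3B had 4185 of these reads on 1265 loops, HepG2 2411 on 842, Huh-7D12 4410 on 1267 and SK-Hep-1 2388 on 843. Per 1000000 gene reads outside mitochondrial genes Hep3B had 242 (235 to 250), HepG2 200 (192 to 208), Huh-7D12 287 (279 to 296) and SK-Hep-1 175 (168 to 182). The 4 intervals did not overlap, and the order ran from Huh-7D12 through Hep3B and HepG2 to SK-Hep-1. Back-splice reads of all circRNAs stood at 747, 516, 881 and 567 on this scale. Huh-7D12 and Hep3B thus led there too, but HepG2 lay under SK-Hep-1. Fewer cells that hold a loop and fewer copies per cell cannot be told apart in such bulk RNA.

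The share of back-splice reads that fell in this span was highest in HepG2. Hep3B stood at 34.4% (33.6 to 35.3), HepG2 at 40.6% (39.4 to 41.9), Huh-7D12 at 34.5% (33.7 to 35.3) and SK-Hep-1 at 32.2% (31.1 to 33.2). Loops of 10 to 50 kb held 38.6%, 31.2%, 40.1% and 41.8% of the reads, with HepG2 the lowest. HepG2 was thus the only line in which loops of 2 to 10 kb held more reads than those of 10 to 50 kb. The higher share of HepG2 was not particular to this span. Loops under 2 kb held 24.7% (23.6 to 25.8) of its reads, beside 21.6% (20.9 to 22.4) in Hep3B, the next line. Loops of 50 kb or more held 3.51% in HepG2, the lowest, beside 5.27% in Huh-7D12, the next line. HepG2 thus had larger shares in both classes under 10 kb and smaller shares in both classes above. A single circRNA of NFATC3, described below, gave 218 of the HepG2 reads. Without it, in an alternative added after seeing the data, the shares were 33.6%, 38.4%, 33.7% and 31.8%, and HepG2 stayed the highest. HepG2 also had the fewest back-splice reads, and the part of depth in this difference was not tested.

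**Figure D1:**
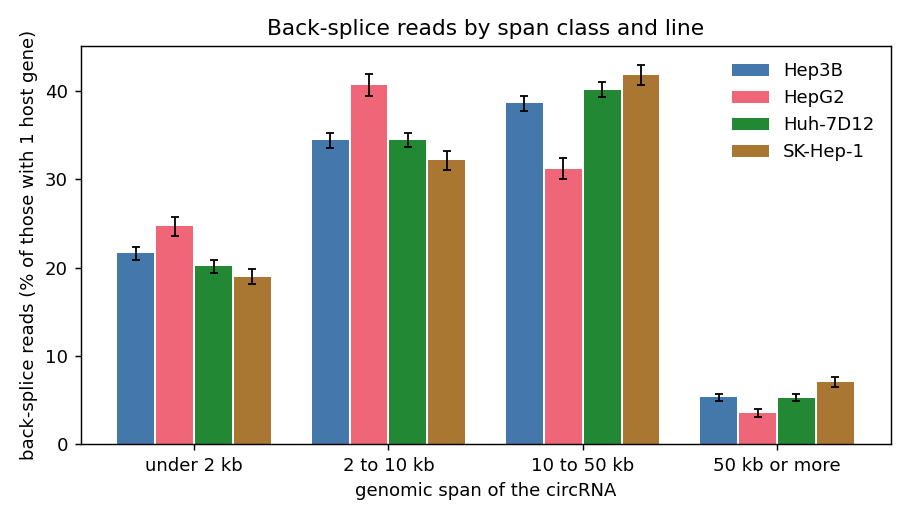
Share of back-splice reads (%, vertical axis) in 4 classes of genomic span (horizontal axis) for each line, among circRNAs with 1 host gene; bars start at 0 and error bars are 95% Wilson intervals for counting error. In the 2 to 10 kb class HepG2 stands at 40.6% and the other 3 lines between 32.2% and 34.5%. HepG2 is also the highest under 2 kb, at 24.7%, while in the 10 to 50 kb class it is the lowest at 31.2%.

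Most of these circRNAs were rare. The median was 3 reads over the 4 lines together, 332 had 1 read, 252 had 10 or more and 10 had 100 or more. The 236 most abundant held 50% of the reads, and the 10 most abundant held 14.2%. Within each line, the 10 loops with the most reads in that line gave 14.5%, 22.6%, 14.0% and 11.8% of its reads. Of the 2496, 1459 were read in 1 line, 555 in 2, 280 in 3 and 202 in all 4. Among those read in 1 line, 332 rested on 1 read and 813 on 2 reads, a depth at which absence from another library says little. Beside them, loops of 10 to 50 kb were read in all 4 lines in 6.29% of cases (5.51 to 7.18), those of 2 to 10 kb in 8.09% (7.09 to 9.23) and those under 2 kb in 10.4% (8.86 to 12.2).

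At the lower bound of the rule, the last loop inside was one of PCMT1 with 2009 bases between its deposited ends and 0, 1, 3 and 0 reads. At the upper bound, a loop of NDC1 at 9988 bases had 0, 0, 0 and 2 reads and lay inside, and one of PTPN9 at 10004 bases had 0, 2, 0 and 2 reads and lay outside.

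The loops of this span were built mainly from a few internal coding exons. Both ends matched exon boundaries of 1 GENCODE 29 transcript in 2159 of 2496 cases (86.5%, 85.1 to 87.8). In 30 both ends matched but in different transcripts, in 306 only 1 end did (161 at the acceptor, 145 at the donor), and in 1 neither did. Among the 2159, the median loop had 3 exons (interquartile range 2 to 4) and a spliced length of 443 nt (interval of the median 435 to 452). Exons thus covered a median of 9.20% of the span, and the introns inside the loop added up to a median of 4685 bases. Whether the introns stay in any loop was not measured by back-splice reads.

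Between neighbouring span classes, exon numbers moved in step with the span. Loops under 2 kb had a median of 2 exons and 324.5 nt, loops of 10 to 50 kb 5 exons and 707.5 nt, and loops of 50 kb or more 7 exons and 1067 nt. In the 2 to 10 kb class, 1690 loops (78.3%) had 2 to 4 exons, 442 (20.5%) had 5 or more and 27 (1.25%) had 1.

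**Figure D2:**
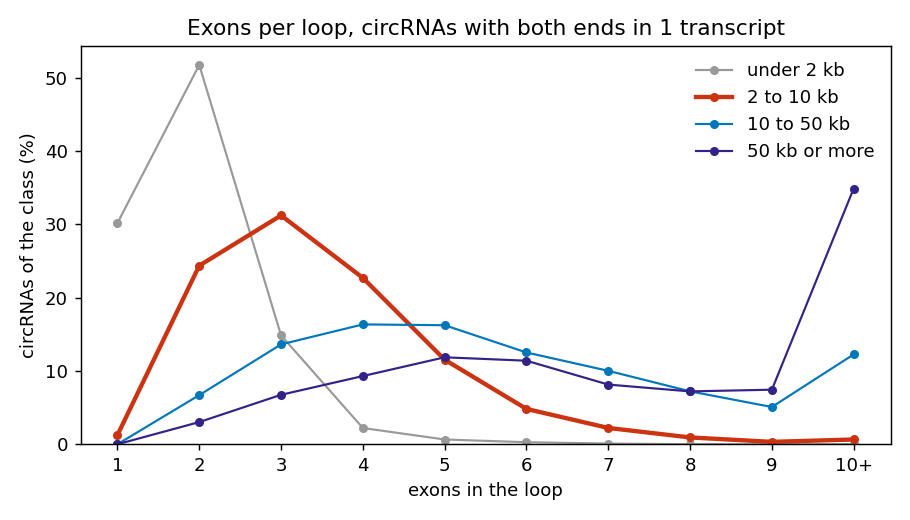
Share of loops (%, vertical axis) by number of exons (horizontal axis, the last point is 10 or more) for the 4 span classes, over loops with both ends in 1 transcript. The curve of the 2 to 10 kb class peaks at 3 exons with 31.2% of the loops, that of the class under 2 kb at 2 exons with 51.8%.

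The 27 loops of 1 exon of over 2000 bases included 3 of the 10 most abundant. FGD6 exon 2 is 2425 nt long, FAT1 exon 2 is 3283 nt and ARHGAP5 exon 2 is 3885 nt. Others were exon 2 of UNC13C (3239 nt, 27 reads, all in Huh-7D12), exon 1 of FAT3 as numbered in the matched transcript (3309 nt, 11 reads, all in Hep3B), and exons of TET1 and TET2, which encode enzymes that oxidise 5-methylcytosine. The TET1 loop of exon 4 had 2, 5, 2 and 1 reads, and the TET2 loop of exon 2 had 1, 1, 0 and 1. At this depth the lines could not be told apart for either gene. Such loops hold no inner intron, so their whole span is exonic.

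By content, 1729 of the 2159 loops (80.1%, 78.3 to 81.7) held coding sequence only in the matched transcript. A further 254 (11.8%) ran from the 5′ untranslated region across the start codon, 80 (3.71%) held a stop codon and 3′ untranslated sequence, and 62 (2.87%) came from transcripts without a reading frame. The share of coding-only loops was 74.0% (72.3 to 75.6) in the 10 to 50 kb class and 77.3% (74.7 to 79.7) in the class under 2 kb. The matched transcript is the one with the most exons in the loop, and it can be a short transcript of the gene, so that contents and exon numbers hold for that transcript. The spliced length was a multiple of 3 in 34.0% of the loops (32.0 to 36.0).

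Loops with more reads started more often at exon 2 and lay behind longer introns. A loop cannot normally start at the first exon, which has no acceptor site, and 606 of 2159 loops (28.1%, 26.2 to 30.0) started at exon 2 of their transcript. The share was 18.3% (14.3 to 23.1) among loops with 1 read, 26.1% (23.8 to 28.6) with 2 to 4 reads, 34.8% (29.8 to 40.2) with 5 to 9, 37.7% (30.9 to 45.1) with 10 to 24, and 55.0% (42.5 to 66.9) among the 60 loops with 25 or more. The intervals of the lowest and the highest class did not overlap.

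The median length of the intron upstream of the loop was 5003 bases with 1 read, 5029 with 2 to 4, 7372 with 5 to 9, 10233 with 10 to 24 and 16547 with 25 or more. Downstream introns had medians of 5094, 4468, 6523, 8599 and 11428 bases in the same order. The first intron of a gene is often its longest, so both measures share a part. Separated by start, loops at exon 2 had a median upstream intron of 21519 bases (13671 to 25161) when they reached the entry level defined below and 11474 (9746 to 13104) when they did not, and the loops that started elsewhere 8922 (7547 to 12595) and 4252 (3940 to 4509). The difference was thus present within each kind of start. Exon number and spliced length did not follow reads in this way: the median stayed at 3 exons in all 5 classes, and spliced lengths lay between 438 and 451 nt.

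A like order by reads was found outside the span, over all other circRNAs with 1 host: 32.7% started at exon 2 with 1 read and 57.7% with 25 or more, and the median upstream intron was 8248 and 20186 bases. Loops of 50 kb or more were an exception in the share at exon 2, which was 51.9% with 1 read, 47.3% with 2 to 4, 53.2% with 5 to 9 and 47.1% among the 17 loops with 10 to 24 reads.

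**Figure D3:**
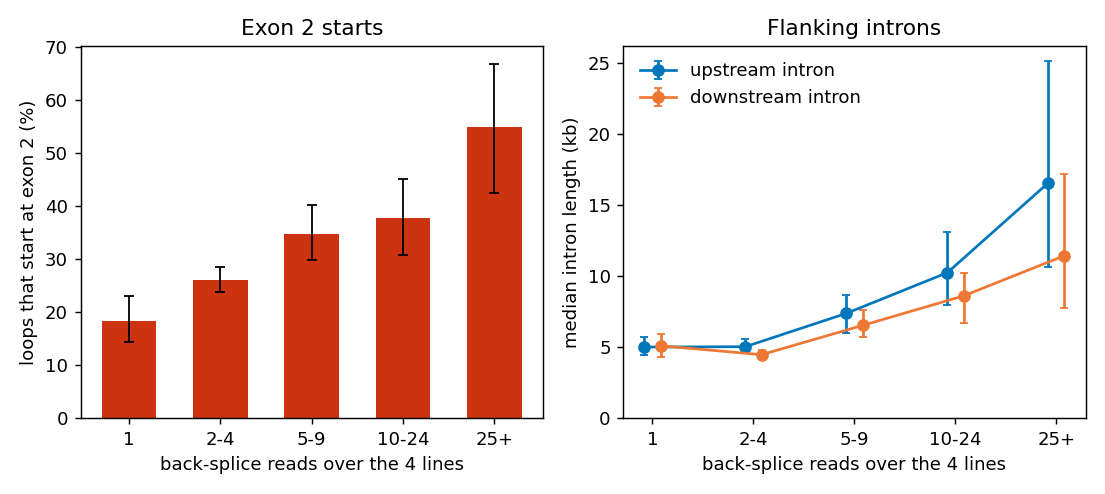
Left, share of loops of 2 to 10 kb that start at exon 2 (%, bars from 0) and right, median length of the introns that flank the loop (kb), by back-splice reads summed over the 4 lines; error bars are 95% intervals for the share (Wilson) and for the median (order statistics). The share rises from 18.3% to 55.0% between the first and the last class, and the median upstream intron from 5003 to 16547 bases.

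The 2496 loops came from 1763 host genes, of which 1276 gave 1 loop each, 321 gave 2 and 166 gave 3 or more. UBAP2, a ubiquitin-associated protein, had the most with 9 loops and 55 reads, and XPO1, the nuclear export receptor, had 7 with 45 reads. FGD6 had 6 loops, but 188 of its 197 reads lay on the loop of exon 2. PICALM, which assembles clathrin coats, had 6 loops with 61 reads, and its most abundant loop, exons 2 to 4, had 8, 8, 8 and 9 reads. Loops of 1 host are not independent of each other: 1162 (46.6%) shared their acceptor or donor with another circRNA of the table, up to 10 circRNAs on 1 acceptor of PICALM and 7 on 1 donor of ACSL3.

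The 10 most abundant loops are described next by host gene. A back-splice count reads 1 junction per loop, so that these levels need no correction for length. Levels are the deposited normalized back-splice reads, that is whole reads times 1 factor per library (0.890, 1.39, 1.08 and 1.35).

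NFATC3, a transcription factor activated by calcium through calcineurin, gave the most abundant loop, exons 2 and 3 (1298 nt, coding). It had 152, 218, 153 and 40 reads, which are levels of 135 (115 to 159), 304 (265 to 347), 166 (141 to 194) and 53.8 (38.5 to 73.3). HepG2 stood highest and SK-Hep-1 lowest, each outside the intervals of the other lines, and Hep3B and Huh-7D12 overlapped. The range was 5.65-fold (4.02 to 8.12). The host gene had 1079, 2017, 991 and 291 reads, a range of 7.18-fold, so that the loop per 1000 host reads lay at 141, 108, 154 and 137. The order of the lines by loop was close to that by host gene, with HepG2 highest and SK-Hep-1 lowest in both.

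BACH1, a repressor of antioxidant and haem genes, gave a loop of exons 2 to 4 (1836 nt, with the start codon) with 35, 12, 43 and 26 reads. Its levels of 31.2, 16.7, 46.6 and 35.0 differed 2.78-fold at most (1.44 to 5.80), the smallest range among the 10. PHC3, a subunit of Polycomb repressive complexes, gave the loop of exons 5 and 6 printed above with 39, 32, 27 and 9 reads. SK-Hep-1 stood lowest at 12.1 (5.54 to 23.0) beside 29.2 to 44.6 in the other lines. The next line, Huh-7D12 at 29.2 (19.3 to 42.6), overlapped with it and lay 2.41-fold (1.10 to 5.83) above. The reads of the host gene differed by 1.23-fold at most after normalization. A loop in ZNF124, a zinc finger gene, had 49, 51, 119 and 13 reads at chr1:247156406-247159813; its first base matched an exon start and its last base matched no annotated exon end.

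Among genes that act on small GTPases, FGD6, an exchange factor, was the one loop of the 10 that stood highest in SK-Hep-1. It had 63, 11, 25 and 89 reads, which are levels of 56.1 (43.1 to 71.8), 15.3 (7.66 to 27.4), 27.1 (17.5 to 40.0) and 120 (96.2 to 147). SK-Hep-1 was 2.14-fold (1.53 to 3.0) above Hep3B, the next line. Host reads were 939, 324, 610 and 2249, and the loop per 1000 host reads was 67.1, 34.0, 41.0 and 39.6.

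ARHGAP12 and ARHGAP5 encode GTPase-activating proteins. The ARHGAP12 loop of exons 2 and 3 had 62, 23, 43 and 9 reads, and per 1000 host reads 33.7, 13.1, 42.6 and 5.87. The loop differed 4.56-fold (2.25 to 10.4) between Hep3B and SK-Hep-1, the host gene 2.24-fold between its own extremes. The ARHGAP5 loop of exon 2 had 37, 48, 14 and 7 reads, and HepG2 stood 2.03-fold (1.30 to 3.21) above Hep3B.

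The remaining 3 were loops of FNDC3B, ASPH and FAT1. FNDC3B, a membrane protein with fibronectin type III domains, gave a loop of exons 5 and 6 with 82, 36, 75 and 10 reads. SK-Hep-1, at a level of 13.5 (6.46 to 24.8), lay 3.73-fold (1.81 to 8.43) under the next line, HepG2, and the host gene differed by 2.75-fold at most. ASPH, which encodes aspartate beta-hydroxylase, gave a loop with 34, 49, 53 and 8 reads. FAT1, an atypical cadherin, gave a loop of exon 2 with 45, 38, 13 and 14 reads. HepG2, at 53.0 (37.5 to 72.7), lay above Huh-7D12 at 14.1 (7.5 to 24.1) and SK-Hep-1 at 18.8 (10.3 to 31.6), and Hep3B at 40.1 (29.2 to 53.6) overlapped with SK-Hep-1.

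Of these 10 loops, 7 were lowest in SK-Hep-1, FGD6 and BACH1 in HepG2 and FAT1 in Huh-7D12. None of the 10 met the 4-fold rule given next.

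**Figure D4:**
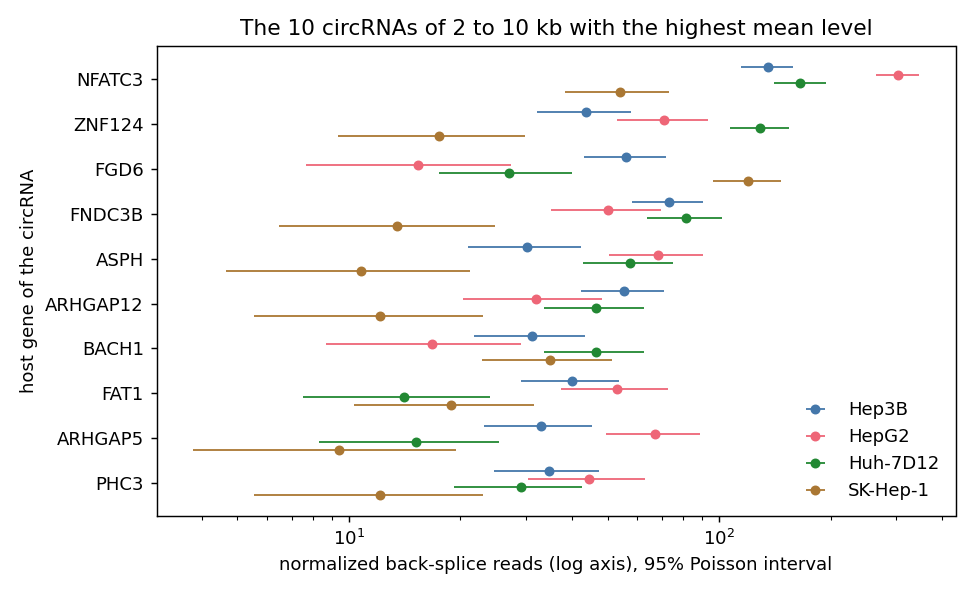
Normalized back-splice reads (horizontal log axis) of the 10 loops with the highest mean level, 1 row per host gene, for the 4 lines; points are single libraries and bars are exact 95% Poisson intervals for counting error. SK-Hep-1 is the lowest point in 7 rows, and the highest only in that of FGD6, at 120.

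Loops were then sorted by size of difference. On the log2 scale, with a pseudocount of 1.21 added to each level, a loop counted as higher in a line if every other line lay at least 2 (4-fold) beneath it, and as lower if every other line lay as far above it. Loops entered this comparison when their highest level reached 6.07, which 245 of the 2496 did; the other 2251 were too rare. In Hep3B 7 stood higher (2.86% of those that entered), beside 1.67% of all 777 circRNAs that entered from the whole table. In HepG2 3 stood higher (1.22%), beside 1.8% of all, and in Huh-7D12 16 (6.53%), beside 6.44%. In SK-Hep-1 9 stood higher (3.67%, 1.94 to 6.83), beside 7.98%, the one count whose interval lay under the share for all circRNAs. The order of the lines depended on the scale: with equal totals of back-splice reads, 287 loops entered, of which 23 stood higher in SK-Hep-1 and 5 in Huh-7D12. Over all 906 circRNAs that entered on that scale no share was computed, so the low share of SK-Hep-1 cannot be judged there. Lower calls numbered 0 in Hep3B beside 0.386% of all, 1 in HepG2 beside 1.03%, and 2 in Huh-7D12 beside 0.386%. SK-Hep-1 had 6 (2.45%) beside 3.6%.

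The lines also differed as a whole. The median log2 difference of a line to the mean of the other 3 was 0.02, -0.42, 0.37 and -0.22 over the 245 loops, and 0.07, -0.60, 0.36 and -0.26 over all 777. Of the 35 loops that stood higher, 23 had 0 reads in the 3 other lines. Any loop with 0 reads elsewhere passed 4-fold once it entered, so the rule favours such loops. In 23 the host gene was highest in the same line. Over all 245 that entered, loop and host shared their highest line in 124 (50.6%, 44.4 to 56.8). Loops of 10 to 50 kb and under 2 kb that entered stood at 56.1% and 55.8%. In 8 of the 35 the host gene itself passed 4-fold there, and for this no share over all that entered was computed.

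In Hep3B the loop of NECTIN3, a cell adhesion molecule, had 14, 0, 0 and 0 reads. That is a level of 12.5 (6.82 to 20.9) in Hep3B. This level lay 2.98-fold above the highest floor of 3 reads among the other libraries, a fold given without an interval. Its host gene was read in all 4 lines, with 2274, 392, 1169 and 1115 reads. The loop of exons 16 to 20 of NF1, the gene of the Ras inhibitor neurofibromin, had 10, 0, 0 and 0 reads beside 2929, 1366, 1530 and 2683 of its host. A loop of AHSA2P had 18, 0, 1 and 1 reads beside 1234, 868, 390 and 372. FAT3, a cadherin related to FAT1, differed from these: its loop had 11, 0, 0 and 0 reads, and its host gene 352, 0, 0 and 4. Loop and host were thus both read almost only in Hep3B. The host reads of the other lines were too few for a FAT3 loop at the Hep3B ratio to be seen.

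In HepG2 the loop of DIP2C had 0, 9, 0 and 0 reads, and its host gene 171, 138, 128 and 309. TMED2, a cargo receptor of the early secretory pathway, gave a loop of exons 2 and 3 with 1, 12, 2 and 1 reads; HepG2 stood 7.73-fold (1.72 to 71.1) above Huh-7D12, whereas the host gene had 4382, 4486, 4237 and 4286 reads. Different loops of ETFA, an electron transfer protein of mitochondria, stood higher in different lines: exons 2 to 4 had 1, 6, 1 and 0 reads and stood higher in HepG2, and exons 3 to 9 had 1, 0, 7 and 0 and stood higher in Huh-7D12. Their host had 2591, 1988, 2910 and 962 reads. A loop of SCFD1 with 2, 7, 0 and 0 reads was the fourth by distance in HepG2 and did not reach 4-fold.

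In Huh-7D12 the loops of UNC13C and VCAN had host genes that also stood higher there. UNC13C, which primes synaptic vesicles, had 0, 0, 27 and 0 reads in its loop and 53, 3, 2133 and 0 in the gene. The level of the loop in Huh-7D12, 29.2 (19.3 to 42.6), lay 6.99-fold above the highest floor of the other libraries, a fold given without an interval. VCAN, the proteoglycan versican, had 0, 0, 6 and 0 reads in its loop and 5, 162, 6969 and 172 in the gene. For UNC13C and VCAN the host reads of the other lines were too few for a loop at the Huh-7D12 ratio to be seen. The host of the SCAP loop was read in every line. SCAP, the escort protein of the sterol-regulated SREBP factors, had 3, 2, 16 and 2 reads on exons 4 to 8, a 6.21-fold (1.46 to 55.7) difference to HepG2, beside 1282, 1191, 1892 and 1104 of its host.

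In SK-Hep-1 the 2 loops with the largest distance lay in genes that were themselves high there. MYOF, the membrane repair protein myoferlin, had 0, 0, 0 and 14 reads in its loop and 34, 25, 300 and 18750 in the gene. FOSL1, a subunit of the AP-1 transcription factor, had 0, 0, 0 and 10 and 9, 319, 32 and 8570. PDE1C, a phosphodiesterase, had 0, 0, 0 and 5 and 0, 0, 1 and 8826. By contrast, NIPSNAP3A had 0, 0, 0 and 8 reads in its loop and 608, 269, 374 and 487 in the gene, and METTL16, an RNA methyltransferase, 0, 0, 0 and 6 and 1029, 449, 852 and 513. For MYOF, FOSL1 and PDE1C the host reads of the other lines were too few for a loop at the SK-Hep-1 ratio to be seen.

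**Figure D5:**
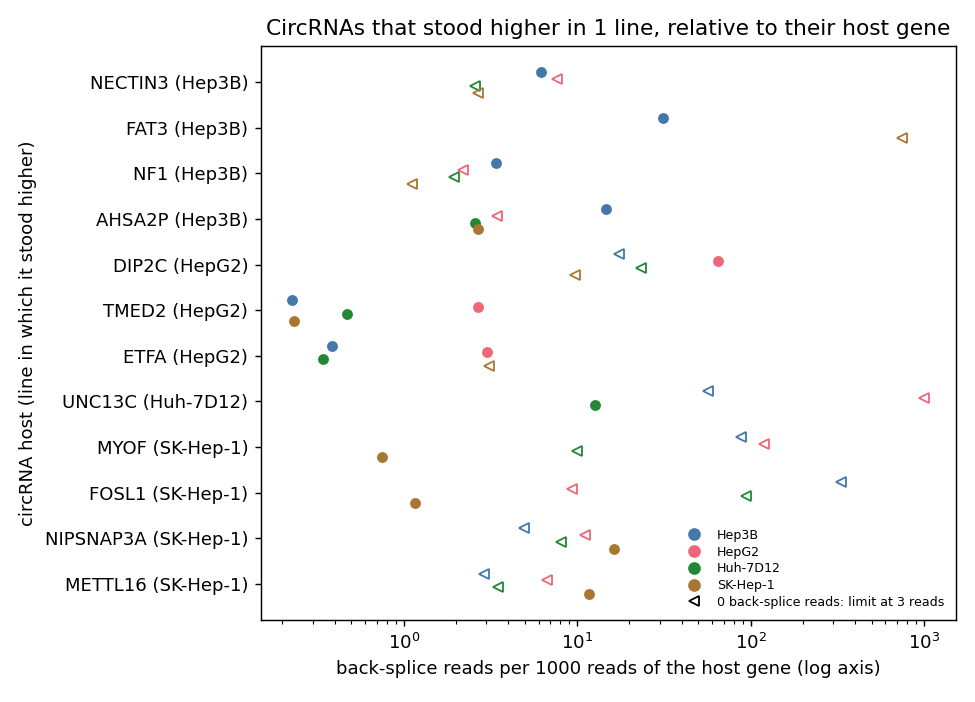
Back-splice reads per 1000 reads of the host gene (horizontal log axis) for 12 loops that stood higher in 1 line, named at the left with that line; filled points are libraries with reads, open triangles mark the limit that 0 back-splice reads allow (3 reads), and libraries with 0 host reads are not drawn. The loops were chosen for their high level in the named line, so a high point there is set by that choice. For MYOF, FOSL1, UNC13C and FAT3 the point of the named line lies below all limits drawn for the other lines.

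The 9 lower calls were led by FAM169A, whose loop of exons 2 to 5 had 9, 15, 12 and 0 reads, beside 1146, 2745, 994 and 547 of its host. ACSL3, which activates long-chain fatty acids, gave a loop of exons 3 and 4 with 34, 10, 11 and 1 reads; SK-Hep-1 stood 8.85-fold (1.29 to 381) under Huh-7D12, and the host had 24088, 10180, 7767 and 3581 reads. Another PHC3 loop, exons 9 to 11, had 17, 4, 5 and 0 reads. NR1H4, the bile acid receptor FXR, had 10, 3, 9 and 0 reads in its loop and 1786, 938, 1147 and 0 in the gene, the only lower call whose host also passed 4-fold. The others in SK-Hep-1 were STT3B, an oligosaccharyltransferase subunit (5, 5, 9 and 0), and UBA2, a subunit of the SUMO-activating enzyme (8, 3, 9 and 0). Loops of FOXK2 (7, 3, 0 and 10) and ZNF91 (8, 10, 0 and 3) lacked reads in Huh-7D12. In 8 of the 9 the low line had 0 reads, and the counts in the line next to it were 3 to 9 in all but ACSL3.

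Over all loops, the line in which a loop was highest was the line in which its host gene was highest in 958 of 2494 cases (38.4%, 36.5 to 40.3). Among the 252 with 10 or more reads the share was 46.8% (40.8 to 53.0). Over all loops under 2 kb it was 39.6% (37.0 to 42.3), and over all those of 10 to 50 kb 40.8% (39.1 to 42.5). With 10 or more reads these 2 classes stood at 48.4% (40.7 to 56.2) and 49.6% (43.6 to 55.7). The median was 0.681 back-splice reads per 1000 host reads over the 4 lines, and 75 loops stood at 10 per 1000 or more.

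The highest ratios among loops with 10 or more reads were those of ATRNL1 and NFATC3. ATRNL1 had 1, 0, 14 and 4 reads on exons 3 to 7 beside only 8, 0, 78 and 22 of its host, which is 176 per 1000, and NFATC3 stood at 129. Such a ratio sets reads of 1 junction against reads of the whole gene and is not a share of molecules. Whether the gene reads include back-splice reads is not given in the sources used here.

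Hosts were also read by function, in 7 lists of genes. The counts of calls below stand beside the shares over all 777 circRNAs that entered, which were 1.67%, 1.8%, 6.44% and 7.98% for higher calls and 0.386%, 1.03%, 0.386% and 3.6% for lower calls. With at most 29 loops of a list entered, a count of 0 or 1 is no result about that list. Known circRNA hosts, 49 of 74 listed genes, gave 116 loops with 2543 reads, 19% of all reads in the span. This list holds hosts of the most abundant loops, among them NFATC3, FGD6 and FNDC3B, and the NFATC3 loop alone gave 563 of these reads. It was drawn up with earlier results of these data known, so that its share of reads is partly set by that choice. Of the 29 that entered, none stood higher in a line and 1 stood lower, that of PHC3 in SK-Hep-1. Their median log2 difference to the other lines was 0.21, -0.08, 0.37 and -0.69, beside the medians over all 777 given above.

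Chromatin regulators gave 80 loops in 40 of 68 genes with 444 reads. Of these, 7 entered and none was called. ASXL1, a chromatin factor that binds the deubiquitinase BAP1, had the most abundant loop, exons 2 to 4, with 19, 9, 50 and 14 reads; Huh-7D12 stood 2.87-fold (1.56 to 5.63) above SK-Hep-1 while the host had 2944, 1663, 1770 and 975 reads. RNA-binding and splicing proteins gave 58 loops in 32 of 64 genes with 506 reads, 15 of which entered without a call. RBM33 led them with 42, 26, 16 and 9 reads.

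The ubiquitin system gave 64 loops in 28 of 60 genes with 340 reads. Of the 6 that entered, UBA2 was called, lower in SK-Hep-1 (beside 3.6% of all), and the most abundant was USP25, a deubiquitinase, with 21, 8, 8 and 3 reads on exons 2 and 3. Cell division and centrosome genes gave 42 loops in 34 of 64 genes with 113 reads, none of which entered; CEP128 led with 4, 1, 3 and 3.

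Hepatocyte genes gave 20 loops in 14 of 50 genes with 84 reads, 25, 12, 41 and 6 by line. Of the 2 that entered, NR1H4 was called, lower in SK-Hep-1 (beside 3.6% of all). Mesenchymal and matrix genes gave 9 loops in 9 of 40 genes with 51 reads, 9, 8, 12 and 22 by line. Their most abundant was PLOD2, a lysyl hydroxylase of collagen, with 6, 6, 5 and 12 reads and 2821, 3616, 2093 and 6002 of its host, or 2.13, 1.66, 2.39 and 2.0 loop reads per 1000 host reads.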

How the data were processed

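Total RNA of 4 lines (1 library each) was depleted of ribosomal RNA and sequenced as stranded, 100-bp paired-end libraries, per the labels' protocols. STAR 2.6.1d and hg38 are named, per the submitters' processing notes. The circRNA caller, read counter, annotation and filter on rare circRNAs are not given in the sources at hand. The deposited signal values of genes and circRNAs are reads that the authors multiplied by 1 factor per library: 100% of them came out whole, within 0.001, after division by the smallest value, in both tables. An empty circRNA value was taken as 0 reads.

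Deposited ends are the bases beside the loop, and the text prints the loop's own first and last base (1-based). Ends were matched to GENCODE 29 exons of the host, and the transcript with the most exons in the loop was used. A count model could not be fitted on the recovered reads, since without replicates no residual degrees of freedom remain. Lines were therefore compared by size: 4-fold to the nearest of the other 3 lines on the log2 scale with a pseudocount of 1.21. The pseudocount is the median over libraries of the value of 1 read. It understates folds of rare loops, but a loop with 0 reads elsewhere passed 4-fold whenever it entered. Intervals are Wilson for shares, exact Poisson for levels, Clopper-Pearson for ratios and order statistics for medians. A fold to a library with 0 reads is to a floor of 3 reads per library, and reads without molecular identifiers are not independent molecules.

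Named loops are the top 10 by mean level, for each line the 4 that stand farthest above the others, those of the 5 hosts with most loops, the most abundant of known hosts and of each list, and the loops beside each bound. The other loops named as higher or lower in a line, among them SCAP, VCAN, PDE1C and the lower calls, and those of ATRNL1, TET1, TET2 and ANKRD36 fall outside this rule and were chosen after their values were seen. Some named loops are not reported here. The members and lists were chosen with earlier results of these data known. Python 3.11.15 with pandas 2.3.3 and scipy 1.17.1 was used.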

Additional observations from a re-analysis of the deposited data

Results flagged for a closer look

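The rule on 1 host gene left out 130 circRNAs of 2 to 10 kb, 105 with 2 or more hosts and 25 with none in the deposited table. They held 545 back-splice reads (Hep3B 168, HepG2 89, Huh-7D12 216, SK-Hep-1 72), and 10 of them reached the entry level. The most abundant had 42 reads. They were not used in any comparison above.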

How the results depend on the processing

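With a span of 2500 to under 8000 bases the share of reads was 25.1%, 31.0%, 25.4% and 22.5% (lines in the order used above), and with all circRNAs as the denominator 32.4%, 38.7%, 32.6% and 30.9%, so that HepG2 stayed highest; without the NFATC3 loop, added after seeing the data, HepG2 stood at 38.4%. The numbers of loops that stood higher depended on the pseudocount, the entry level and the scale. They were 7, 3, 16 and 9 as reported, 0, 0, 3 and 1 with 4 times the pseudocount, 13, 19, 70 and 69 with no entry level, and 12, 11, 48 and 28 at 2-fold. With the entry level at 10 times the pseudocount Hep3B had 2, Huh-7D12 7 and SK-Hep-1 3. With equal totals of back-splice reads HepG2 had 9, Huh-7D12 5 and SK-Hep-1 23, and the median of all circRNAs moved to -0.13, -0.23, -0.33 and 0.13. With a pseudocount 4 times smaller SK-Hep-1 had 17, and without the SK-Hep-1 line Huh-7D12 had 27. UNC13C and MYOF were among the 4 calls left with 4 times the pseudocount. Lower calls (9) numbered 62 with a pseudocount 4 times smaller, 0 with one 4 times larger, 77 at 2-fold and 20 without SK-Hep-1. For these other settings no share over all circRNAs was computed, so the higher and lower counts under them are no result about this span. Weighted by reads, 89.5% of loops matched both ends, 42.6% started at exon 2, the median spliced length was 462 nt and the median upstream intron 10199 bases; with the transcript of fewest exons the median length was 423 nt. Loop and host shared their highest line in 46.8% of cases with 10 or more reads and in 43.9% without SK-Hep-1. The cause of these changes was not tested. No paired analysis was possible because each line has 1 library, and no comparison gave a test. Complementary repeats in the flanks, planned, were not run because no genome sequence was used here. Depth limits all values: most loops rest on a few reads.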
